A study of Mus musculus with 2 samples.

Results

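*Egfr*, the receptor for epidermal growth factor, 3 receptors for fibroblast growth factors (*Fgfr1*, *Fgfr2* and *Fgfr3*) and 6 genes that their signal is known to induce (*Spry1*, *Spry2*, *Spry4*, *Dusp6*, *Etv4* and *Etv5*) were read in single cells of cortical neurospheres. These 10 genes were chosen by name, and all 10 were among the 10666 genes of the expression table. Neurospheres are balls of dividing neural stem and progenitor cells that grow in suspension. The 2 replicate cultures came from the dorsal telencephalon of wild-type C57BL/6 mice at embryonic day 14.5, and both grew in medium with 10 ng/ml EGF and 10 ng/ml bFGF. There is no culture without these factors, so the levels below are those of stimulated cells and no response to the factors could be measured. The labels do not say whether the cultures came from separate animals. No second condition exists and cells are not replicates, so no test was run, and intervals cover counting error only.

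EGF binds *Egfr* and bFGF binds the FGF receptors, and both kinds of receptor are tyrosine kinases that switch on the kinases RAF, MEK and ERK through RAS. Active ERK leads to transcription of *Etv4* and *Etv5*, which encode transcription factors of the ETS family, and of genes that dampen the signal. Sprouty proteins, encoded by *Spry1*, *Spry2* and *Spry4*, act on the path between receptor and ERK, and the phosphatase encoded by *Dusp6* inactivates ERK itself. In the embryonic cortex, FGF signalling is known to keep radial glia, the stem cells of this tissue, in a progenitor state, and EGF responsiveness is known to rise late in gestation.

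Capicua is a DNA-binding repressor that ERK signalling relieves, and *Etv4*, *Etv5*, *Dusp6* and Sprouty genes are known among its targets. Its octamer was searched for in 4 spellings, TGAATGAA, TGAATGGA, TCAATGAA and TCAATGGA, on both strands of RefSeq promoter windows that run from 250 bases before to 50 after a gene's start (GRCm38.p6). The table held 9 windows, for 7 of the members. *Fgfr1*, *Spry4* and *Etv4* had no window and were not searched. Of the 7, *Dusp6* held 2 octamers and *Spry2* held 1, and the other 5 members held none. Of all 32851 windows, 3.84% held at least 1 and 0.183% at least 2, which are shares of windows and not of genes. The core CCGGAAG, which many ETS factors bind, was in 8.86% of all windows and, of the members, in that of *Egfr*, with no overlap between matches. A match is a description of letters and not a bound site. The windows of *Dusp6* and *Spry1* are shown because these genes formed the member pair with the highest correlation over cells, and that of *Spry2* because its most similar genes lay apart from those of the other members. Capitals mark the octamers, which lie at bases 227 to 234 and 252 to 259 of the *Dusp6* window and at bases 197 to 204 of the *Spry2* window, each on the strand opposite to the one printed, which is that of the gene.
*Dusp6*, chr10:99262981-99263280, plus strand: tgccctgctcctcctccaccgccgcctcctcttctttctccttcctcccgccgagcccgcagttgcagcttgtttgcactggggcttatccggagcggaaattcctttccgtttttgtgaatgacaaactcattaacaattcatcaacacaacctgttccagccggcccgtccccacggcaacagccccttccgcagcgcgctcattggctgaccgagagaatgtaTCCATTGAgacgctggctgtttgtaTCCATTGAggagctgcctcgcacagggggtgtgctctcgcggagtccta
*Spry1*, chr3:37639697-37639996, plus strand: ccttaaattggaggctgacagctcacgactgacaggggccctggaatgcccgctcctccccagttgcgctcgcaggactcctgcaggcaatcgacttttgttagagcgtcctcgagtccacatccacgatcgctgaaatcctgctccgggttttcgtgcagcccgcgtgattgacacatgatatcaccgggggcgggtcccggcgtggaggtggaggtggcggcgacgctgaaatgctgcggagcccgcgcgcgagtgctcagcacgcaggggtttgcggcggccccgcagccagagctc
*Spry2*, chr14:105896770-105897069, minus strand: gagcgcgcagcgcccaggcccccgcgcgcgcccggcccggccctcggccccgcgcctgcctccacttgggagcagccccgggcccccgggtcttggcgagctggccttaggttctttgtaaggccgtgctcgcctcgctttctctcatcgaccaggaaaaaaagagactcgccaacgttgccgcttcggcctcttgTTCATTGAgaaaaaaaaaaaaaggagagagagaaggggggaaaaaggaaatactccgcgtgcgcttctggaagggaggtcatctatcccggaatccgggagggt

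The table held 5748 cells of culture 1 and 7057 of culture 2, with medians of 19477 and 14637 total UMIs (unique molecular identifiers, 1 per captured molecule) per cell. The sequence parts of 48 cell barcodes occurred in both cultures. Among markers of cortical cells, *Fabp7*, which encodes a fatty acid binding protein of radial glia, was detected in 100% and 99.96% of cells. *Slc1a3*, which encodes a glial glutamate transporter, was detected in 92.1% and 94.0%. Other radial glia markers ranged from *Vim* in 99.2% and 99.9% of cells to *Pax6* in 21.1% and 23.1% and *Prom1* in 2.51% and 2.17%. The neuroblast gene *Dcx* was detected in 7.34% and 1.56%. Some markers of other lineages were detected in most cells, with the oligodendrocyte progenitor markers *Olig2* in 97.3% and 91.9% of cells and *Ptprz1* in 98.8% and 90.9%, and the neuronal marker *Map2* in 77.7% and 63.6%. Of the markers of microglia, blood, endothelium and mesenchyme, 1 of 18 was in the table, *Acta2*.

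Among the receptors, *Fgfr1* was detected in the most cells, in 59.7% of culture 1 and 51.0% of culture 2. *Egfr* was detected in 49.3% (exact 95% binomial interval 48.0% to 50.6%) and 35.4% (34.3% to 36.6%). *Fgfr3* was detected in 17.8% and 8.13% of cells and *Fgfr2* in 8.04% and 5.97%, so both lay well below *Fgfr1* in each culture. The mean deposited value, which the authors scaled to the depth of each cell, was 0.640 and 0.668 for *Egfr*, 0.959 and 0.918 for *Fgfr1*, 0.0788 and 0.0683 for *Fgfr2*, and 0.158 and 0.132 for *Fgfr3*. Of 10 classes of cells by total UMIs, the lowest held *Egfr* in 16% of its cells in culture 1 and 23.2% in culture 2, and the highest in 71.8% and 58.8%. The share of cells without a receptor UMI is therefore no share of cells without the receptor. In GENCODE vM21 on GRCm38, an annotation older than the one the authors used, the receptor genes lie as *Egfr* (ENSMUSG00000020122) at chr11:16752203-16918158, *Fgfr1* (ENSMUSG00000031565) at chr8:25513654-25575718, *Fgfr2* (ENSMUSG00000030849) at chr7:130162451-133123350 and *Fgfr3* (ENSMUSG00000054252) at chr5:33721674-33737068. The RefSeq promoter window of *Fgfr2*, at chr7:130266759-130267058 on the minus strand, lies far inside that extent, so the 2 sources place the start of this gene differently.

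Of the feedback genes, *Spry1* and *Dusp6* were detected in the most cells. *Spry1* was detected in 73.7% and 65.3% of cells and *Dusp6* in 70.6% and 56.5%, with mean deposited values of 1.61 and 1.59 for *Spry1* and of 1.59 and 1.54 for *Dusp6*. *Spry2* was detected in 49.3% and 40.8% of cells. *Spry4* was detected in 37.9% of cells of culture 1 (36.7% to 39.2%) and in 44.4% of culture 2 (43.2% to 45.5%), although cells of culture 2 held fewer UMIs. The ETS genes were close to each other, with *Etv4* in 55.6% and 55.7% of cells and *Etv5* in 57.4% and 54.1%. The same annotation places *Spry1* (ENSMUSG00000037211) at chr3:37639947-37644598, *Spry2* (ENSMUSG00000022114) at chr14:105891947-105896819 and *Spry4* (ENSMUSG00000024427) at chr18:38586247-38601415. It places *Dusp6* (ENSMUSG00000019960) at chr10:99263231-99267489, *Etv4* (ENSMUSG00000017724) at chr11:101769742-101785371 and *Etv5* (ENSMUSG00000013089) at chr16:22381309-22439719. Free RNA in the droplets can give UMIs to cells that do not express a gene, and no class of cells known to lack these genes was set apart here to measure it.

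In the deposited values the means of the cultures were close for every member, and none differed by 1.5-fold, as 1.60% of 5991 genes did. Within a culture, however, each gene's values fell near evenly spaced steps once multiplied by a factor for each cell, and the step differed by gene and by culture. That factor began at the depth of the cell and was refitted to the steps. Relative to the median step of all genes, the step of *Spry4* was 1.25 in culture 1 and 0.852 in culture 2, and that of *Fgfr3* was 0.885 and 1.21. Such a step is read here as the worth of 1 UMI, so a scaling by gene and culture lies in the deposited values, and the methods do not state one. Between 88.0% and 99.7% of the nonzero values of a member lay within 0.2 steps of a whole number of steps. The step was set from these same values, so values read as 1 UMI lie near 1 step by construction. Such values were most of the nonzero ones for some members, as in 410 of 462 cells for *Fgfr2* in culture 1. The share is therefore no test of this reading. UMIs were recovered per gene and culture, as a reading of the steps that was chosen after the data were seen.

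Recovered UMIs set the cultures further apart than the deposited means did. *Spry4* was at 0.265 UMIs per 10000 total UMIs in culture 1 (exact 95% Poisson interval 0.256 to 0.275) and 0.449 in culture 2 (0.437 to 0.462), 1.69-fold higher in culture 2 (1.62 to 1.77). *Fgfr3* went the other way, at 0.111 in culture 1 and 0.0590 in culture 2, 1.88-fold higher in culture 1 (1.71 to 2.06). These were the 2 members past 1.5-fold, against 17.3% of the 5991 genes with a usable step, so 2 of 10 is near the share of all genes. The median gene was higher in culture 1 by 0.13 on the log2 scale, and relative to it *Spry4* lay at -0.89, *Etv4* at -0.45 and *Etv5* at -0.36, while *Fgfr3* lay at 0.78, *Dusp6* at 0.31 and *Egfr* at 0.29.

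*Dusp6*, for example, was at 0.982 UMIs per 10000 in culture 1 and 0.724 in culture 2, and *Egfr* at 0.417 and 0.313. *Etv4* was at 0.472 and 0.589, and *Etv5* at 0.472 and 0.555. The remaining members differed less, with *Spry1* at 0.886 and 0.842, *Fgfr1* at 0.551 and 0.509, *Spry2* at 0.465 and 0.450, and *Fgfr2* at 0.0437 and 0.0411. Feedback genes of the same pathway thus lay on opposite sides between the cultures. Genes in general were spread to both sides as well. Over the 5991 genes, the log2 ratio of recovered UMIs in culture 1 over culture 2 had quartiles of -0.13 and 0.39. When each cell was thinned to 10000 UMIs, *Spry4* was expected in 22.4% of cells of culture 1 and 33.1% of culture 2, and *Dusp6* in 54.1% and 44.9%. In cells of a shared range of depth, from 15018 to 17565 UMIs, *Spry4* was at 0.302 and 0.448 UMIs per 10000 and *Dusp6* at 1.02 and 0.772. With 1 library a culture, differences of the cultures and of the libraries cannot be told apart.

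**Figure D1:**
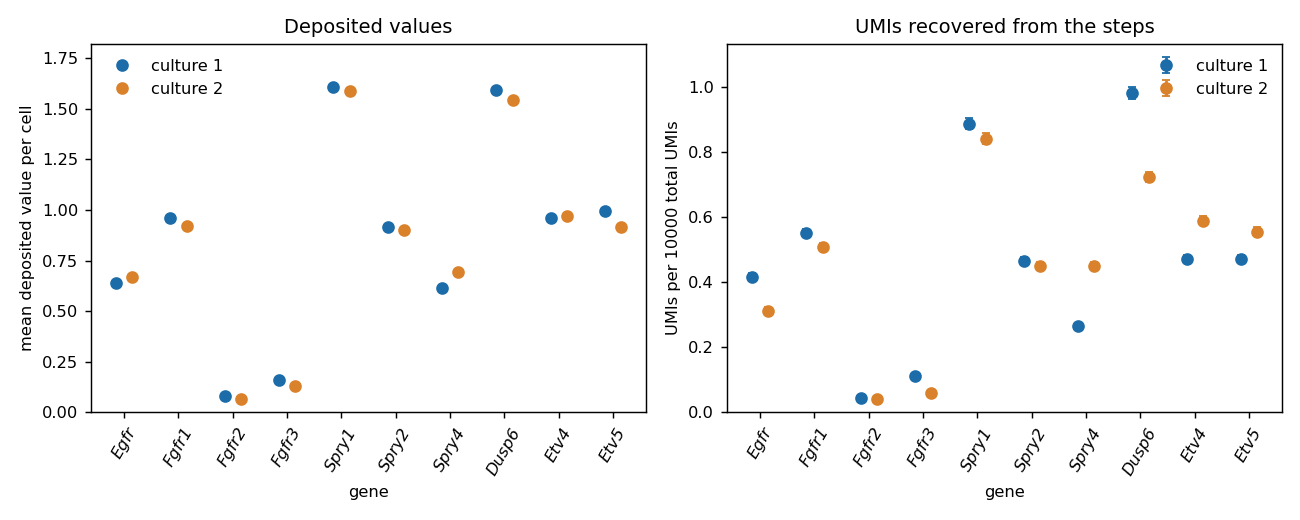
Level of each member in culture 1 (blue) and culture 2 (orange), as the mean deposited value per cell (left) and as recovered UMIs per 10000 total UMIs with exact 95% Poisson intervals (right). The cultures nearly coincide on the left, whereas on the right *Spry4* is at 0.265 in culture 1 and 0.449 in culture 2 and *Dusp6* at 0.982 and 0.724.

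Few cells held UMIs of all members. All 4 receptors were detected together in 68 cells of culture 1 (1.18%) and 19 of culture 2 (0.269%), and none of the 4 in 20.7% and 30.2%. All 6 feedback genes were detected in 6.70% and 4.34% of cells and none in 3.24% and 3.07%. Cells without a feedback gene had a median of 11510 and 12726 UMIs, against 26972 and 19781 in cells with all 6, so these counts follow depth. *Egfr* and *Fgfr1* were detected together in 33.2% and 20.1% of cells. This was 1.04 times the share expected from independent detection within 10 classes of depth in both cultures.

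The summed deposited level of the 6 feedback genes was higher in cells in which a receptor was detected. Averaged over the depth classes, it was 1.09 times higher with than without *Egfr* in culture 1 and 1.11 times in culture 2, and 1.11 and 1.07 times for *Fgfr1*. In cells with both receptors it was 1.19 and 1.18 times the level of cells with neither. *Dusp6* was at 1.16 and 1.21 times with *Egfr*, the highest of the 6 in both cultures, and 1.17 and 1.09 times with *Fgfr1*. With *Egfr*, *Spry1* was at 1.14 and 1.06 times and *Spry4* at 1.15 and 1.12 times. *Etv4* was at 1.08 and 1.001 times there, *Etv5* at 1.01 and 1.13 times and *Spry2* at 0.975 and 1.11 times. With *Fgfr2*, *Dusp6* was at 1.19 and 0.994 times. No such ratio is given for genes outside the members, so whether ratios of this size are common was not tested. *Etv4* was at 1.23 and 1.17 times with *Fgfr3*, where *Etv5* was at 0.895 and 0.956 times. These ratios describe 2 libraries.

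Pairs of members were weakly correlated over cells. Of 45 pairs, 41 had a Pearson r above 0 in both cultures, with medians of 0.044 and 0.036. The share of all pairs of genes above 0 in both was not counted. To the summed feedback genes, 3719 of 10656 other genes had an r above 0 in both cultures. That is another measure, of single genes at any level against a sum, and no background for the 41 pairs. An r of 0.1 in both cultures was reached by 2 member pairs, against 0.173% of all pairs of genes. These were *Spry1* with *Dusp6*, at 0.195 in culture 1 and 0.152 in culture 2, and *Spry4* with *Dusp6*, at 0.115 and 0.150. By the lower r of the cultures, *Egfr* with *Dusp6* came next, at 0.116 and 0.093. In culture 1 alone, *Fgfr1* with *Dusp6* was at 0.121 and *Spry1* with *Etv4* at 0.118, against 0.062 and 0.076 in culture 2. The pair of ETS genes, *Etv4* and *Etv5*, was at 0.026 and 0.028. The points are cells that share a library and differ in depth, and after a fit of depth *Spry1* with *Dusp6* was at 0.176 and 0.150.

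**Figure D2:**
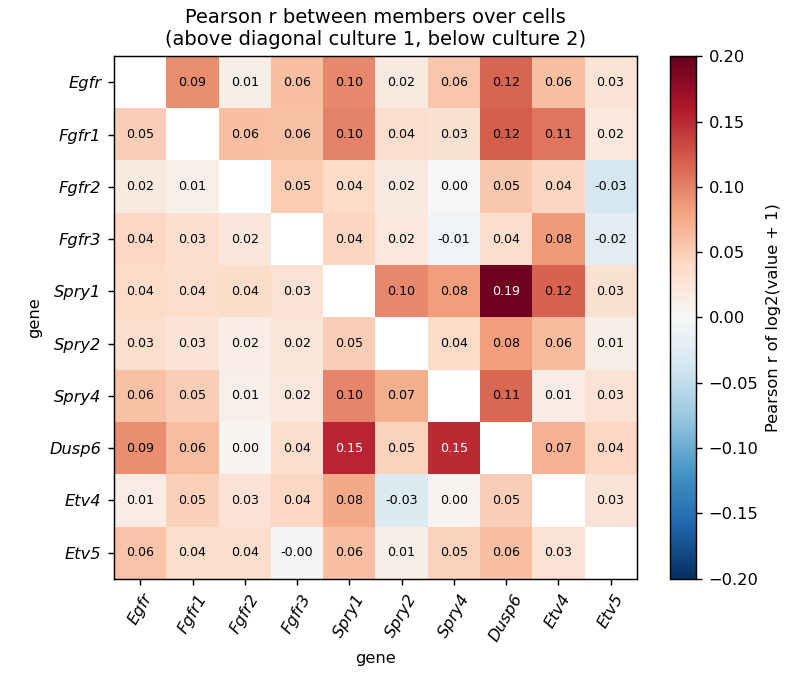
Pearson r of log2(value + 1) over cells for each pair of members, with culture 1 above the diagonal and culture 2 below it. *Spry1* with *Dusp6* (0.195 and 0.152) and *Spry4* with *Dusp6* (0.115 and 0.150) are the pairs at 0.1 or above in both cultures.

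Across all other genes, the sum of the 6 feedback genes was most like *Slc1a3*, with r of 0.332 in culture 1 and 0.249 in culture 2. *Cox8a*, *Mt3* and *Slc4a4* were also among the most similar genes, of which *Slc4a4* encodes a transporter known from astroglia and *Mt3* a metallothionein. In all, 0.610% of 10656 genes had an r of at least 0.1 to the sum in both cultures and 0.178% had one of -0.1 or below, led by *Eef1a1* (-0.239 and -0.177), *Basp1* and *Ubb*. Of 8 radial glia markers in the table, *Slc1a3* and *Hes1* (0.174 and 0.108) were the 2 at 0.1 or above in both cultures. *Fabp7* was at 0.253 and 0.036, *Nes* at 0.106 and -0.025 and *Vim* at 0.120 and -0.209. The median of the 8 was 0.113 and 0.024. None of 5 astrocyte markers reached 0.1 in both, with *S100b* at -0.168 and 0.032 and *Id3* at 0.194 and 0.090. *Slc1a3*, *Mt3* or both were also among the 5 most similar genes of *Fgfr1*, *Fgfr2*, *Fgfr3*, *Spry1*, *Dusp6* and *Etv4*, with *Igfbp2* in each of these 6. *Egfr* was most like *Kcnc1* (0.217 and 0.112), a potassium channel gene, and *Rfx4*, followed by *Sptan1*, *Sept9* and *Rrbp1*.

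*Spry4* was most like *Ccnd1*, the cyclin D1 gene, with r of 0.126 and 0.123, followed by *Amotl1*, *Ubash3b*, *Erf* and *Klf10*. *Erf* encodes an ETS-family repressor that ERK is known to control. *Etv5* was most like *Cenpa*, *Ube2c*, *Olig2*, *Cenpf* and *Cdc20*, of which all but *Olig2* act in mitosis, with r between 0.068 and 0.102. No gene outside the members reached 0.1 to *Etv5* in both cultures. After a fit of depth and position the r to *Cenpa* was 0.053 and 0.037 and that to *Cdc20* 0.038 and 0.017, where *Olig2* was at 0.071 and 0.094.

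Cells were divided into 4 groups of equal size by their *Slc1a3* value, a choice made after that gene led the list above, so the trend of the feedback genes across the groups describes the same likeness. *Slc1a3* was also the gene most like *Fgfr2* and 1 of the 2 most like *Fgfr1*, so the trends of these receptors describe that likeness too. *Fgfr2* followed *Slc1a3* most steeply, from a mean deposited value of 0.037 in the lowest group to 0.133 in the highest in culture 1, and from 0.030 to 0.120 in culture 2. *Fgfr3* went from 0.074 to 0.245 and from 0.073 to 0.209. *Etv4* followed them, from 0.581 to 1.34 and from 0.680 to 1.28. *Dusp6* was 1.91 and 1.48 times higher in the highest than in the lowest group, *Spry1* 1.54 and 1.62 times, and *Fgfr1* 1.70 and 1.43 times. *Egfr* was 1.82 times higher in culture 1 but 1.19 times in culture 2. *Etv5* was at 0.831 times in culture 1 and 1.13 times in culture 2, and *Spry4* at 1.03 and 1.28 times, so these 2 genes did not follow *Slc1a3* in both cultures. The lowest group had a median of 15219 UMIs per cell in culture 1, against 19919 to 21476 in the others, and 14128 in culture 2, against 14359 to 15036.5, and the part of depth in these values was not tested.

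**Figure D3:**
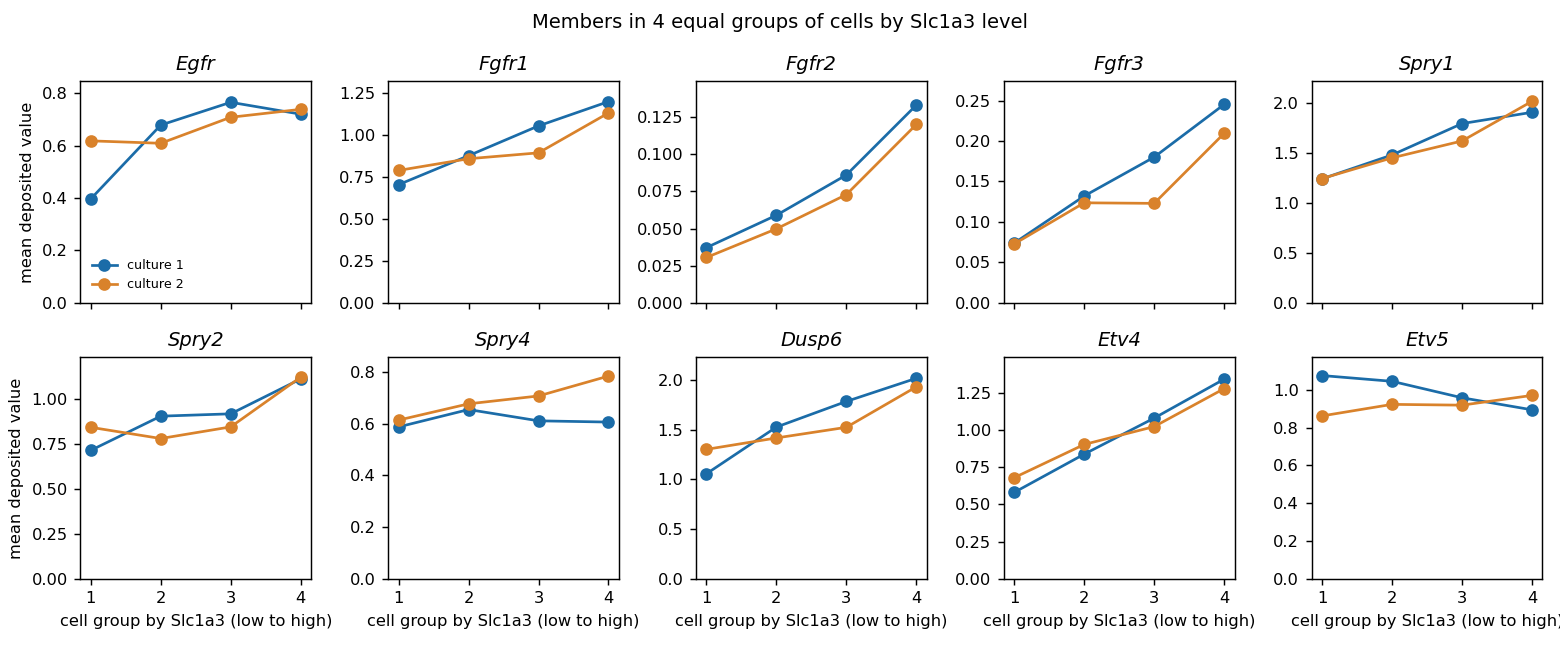
Mean deposited value of each member in 4 equal groups of the cells ordered by their *Slc1a3* value, for culture 1 (blue) and culture 2 (orange). *Fgfr2* (0.037 to 0.133 in culture 1), *Fgfr3* and *Etv4* are higher in the highest than in the lowest group in both cultures, and *Etv5* is at 0.831 times in culture 1 and 1.13 times in culture 2.

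Cells with a UMI of *Sox10*, *Pdgfra* or *Dcx*, markers chosen after their values were seen, had lower mean *Egfr* values in both cultures. In culture 1, the 245 cells with *Sox10*, a gene of the oligodendrocyte lineage, had 0.41 times the mean *Egfr* value of cells without it, the 504 cells with *Pdgfra* 0.51 times and the 422 cells with *Dcx* 0.38 times. Such cells were fewer in culture 2, with 53, 128 and 110 cells, and *Egfr* was at 0.56, 0.80 and 0.78 times. *Dusp6* was at 0.48, 0.65 and 0.54 times in culture 1 and at 0.76, 0.75 and 0.76 times in culture 2. *Etv5* was at 0.96, 1.12 and 1.28 times and at 1.06, 1.28 and 1.01 times, so it did not share the lower values of *Egfr* and *Dusp6*. *Fgfr3* was at 0.34, 0.38 and 0.47 times in culture 1 and at 0.88, 0.55 and 1.52 times in culture 2, so its value in cells with *Dcx* lay on opposite sides in the cultures. In cells with S100b, an astrocyte marker, *Egfr* was at 0.92 and 1.01 times, and in cells with *Lhfpl3*, another gene of oligodendrocyte progenitors, at 0.70 and 0.93 times. Of the other markers of that lineage, *Nkx2-2* had an r to *Egfr* over cells of -0.065 and -0.0030. The others were not below 0 in both cultures, with *Olig2* at 0.012 and 0.064 and *Cspg4* at -0.073 and 0.019. *Cspg5* was at -0.037 and 0.0053 and *Ptprz1* at -0.0015 and 0.026. The other neuron markers were not below 0 in both either, with *Gad1* at 0.023 and -0.0065, *Map2* at -0.031 and 0.056 and *Rbfox3* at 0.011 and 0.0039. Of the astrocyte markers, *Aldh1l1* (0.053 and 0.019), *Slc1a2* (0.099 and 0.047) and *Id3* (0.13 and 0.030) were above 0 and *Sox9* (-0.17 and -0.012) below. The cells with *Sox10*, *Pdgfra* or *Dcx* were shallower than the rest in culture 1 (medians of 15218.5 to 17086 UMIs) and deeper in culture 2 (16293 to 18792), and within classes of depth the *Egfr* values were 0.43, 0.54 and 0.41 times in culture 1 and 0.52, 0.75 and 0.74 times in culture 2.

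*Spry2* stood apart from the other members in the genes it resembled. Its r to *Actb*, which encodes beta-actin, was 0.372 in culture 1 and 0.438 in culture 2, and 43 genes had an r of at least 0.1 to it in both cultures, where *Etv4*, the next of the members, had 27. The next 4 genes were *Rpgrip1*, *Sfxn5*, *Abhd2* and *Gnb1*, with r from 0.241 to 0.342. These 5 genes were also correlated among themselves, with a median r of 0.255 and 0.179 over 10 pairs. A fit of depth and cell-cycle position left the r of *Spry2* to *Actb* at 0.393 and 0.422.

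Cells with 4 or more *Spry2* UMIs were 316 of culture 1 (5.50%) and 227 of culture 2 (3.22%). Their mean deposited value of *Actb* was 137 and 156, against 62.8 and 57.3 in cells without a *Spry2* UMI, which is 2.18 and 2.73 times higher. *Rpgrip1*, known as a gene of photoreceptor cilia, was 5.31 and 6.08 times higher, *Sfxn5* 6.76 and 6.45 times and *Abhd2* 4.01 and 9.05 times. *Spry1* was 1.20 times higher in both cultures and *Dusp6* 1.18 and 1.41 times, and *Gnb1* 1.88 and 1.89 times. The 5 genes were chosen for their r to *Spry2* in these cells, so their higher values here describe the same likeness and are no comparison with *Spry1* or *Dusp6*. Median depth was 22694.5 UMIs in the cells with 4 or more in culture 1, against 17838 without, and 14345 against 14295.5 in culture 2.

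**Figure D4:**
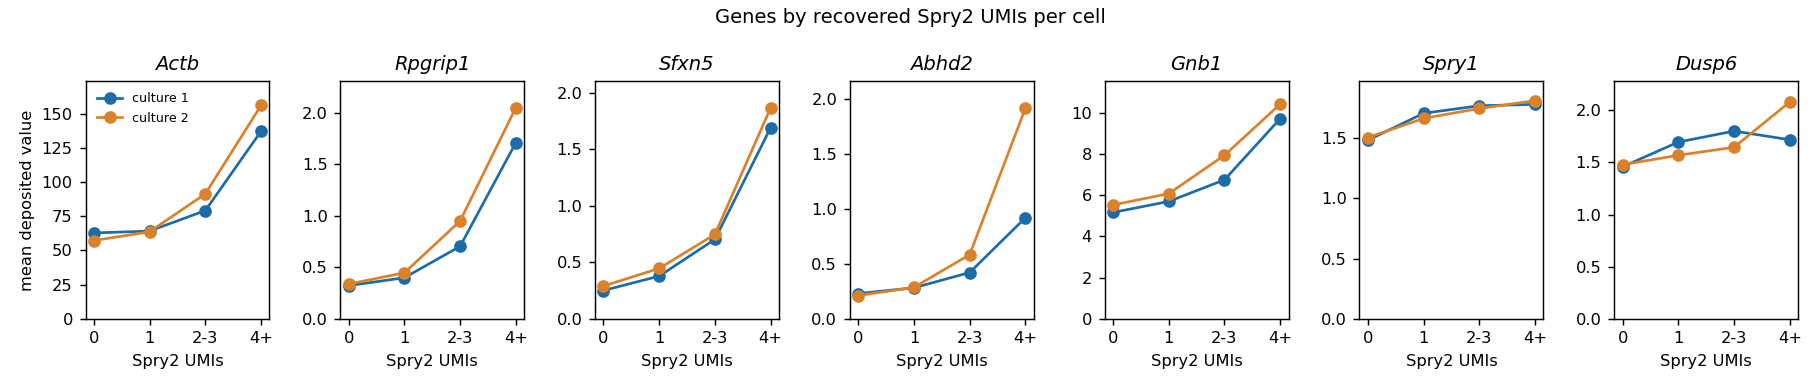
Mean deposited value of the 5 genes most like *Spry2* and of *Spry1* and *Dusp6* in cells with 0, 1, 2 to 3 and 4 or more recovered *Spry2* UMIs, for culture 1 (blue) and culture 2 (orange). *Actb* goes from 62.8 to 137 and from 57.3 to 156, and *Spry1* is 1.20 times higher in the last class than in the first in both cultures.

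The cell-cycle position is the authors' angle from 0 to 2π, on which DNA replication precedes π and mitosis follows it. A fit of 2 harmonics of the position explained a fraction of between 0.000616 and 0.0116 of the variance (R2) of a member in either culture, and 0 of 10 members reached an R2 of 0.05 in both, which 4.01% of all genes did, so a count of 0 is near that share. At these levels counting noise also limits R2 over single cells. *Etv5* had a higher R2 than 75.7% of genes in culture 1 and 80.5% in culture 2, where *Dusp6* exceeded 79.5% and 44.1%, *Spry1* 78.5% and 25.5%, and *Etv4* 38.1% and 83.6%. For scale, *Cenpa* and *Ube2c*, genes of mitosis, had R2 of 0.736 and 0.743 in culture 1. The periodic lines of 6 members had their maxima within 0.25π of each other in the cultures. The share of all genes that did so was not counted, so this count is not read as a trait of the members. The difference between maximum and minimum of a member's line was between 0.021 and 0.278 on the log2 scale.

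*Etv5* differed on the 2 sides of π in both cultures. It stood at 0.396 UMIs per 10000 in culture 1 and 0.426 in culture 2 between 0.75π and π, the lowest of 8 classes of position in both, and at 0.581 and 0.690 between π and 1.25π, the highest in both. That is a step of 1.47 and 1.62 times, with Poisson intervals that lay apart, over 992 and 1064 cells of culture 1 and 546 and 1120 of culture 2. *Etv5* was the only member with intervals apart at this step in both cultures, and the share of all genes with intervals apart there was not counted. The step was singled out after its values were seen. In other members the ratio across π was 1.31 and 1.14 for *Spry4*, 1.16 and 1.10 for *Spry2*, 1.11 and 1.19 for *Etv4* and 0.655 and 1.36 for *Fgfr2*, with intervals apart in culture 1 for *Spry4*, *Spry2* and *Fgfr2* and in culture 2 for *Etv4*. *Spry1* was lowest between 0.5π and 0.75π in both cultures, at 0.768 and 0.692, and *Dusp6* went in culture 1 from 0.949 before π to 0.754 after it, and in culture 2 from 0.689 to 0.648. The classes from 1.25π to 1.75π were thin, with 85 and 64 cells in culture 1 and 279 and 189 in culture 2, and their values carry wide intervals.

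**Figure D5:**
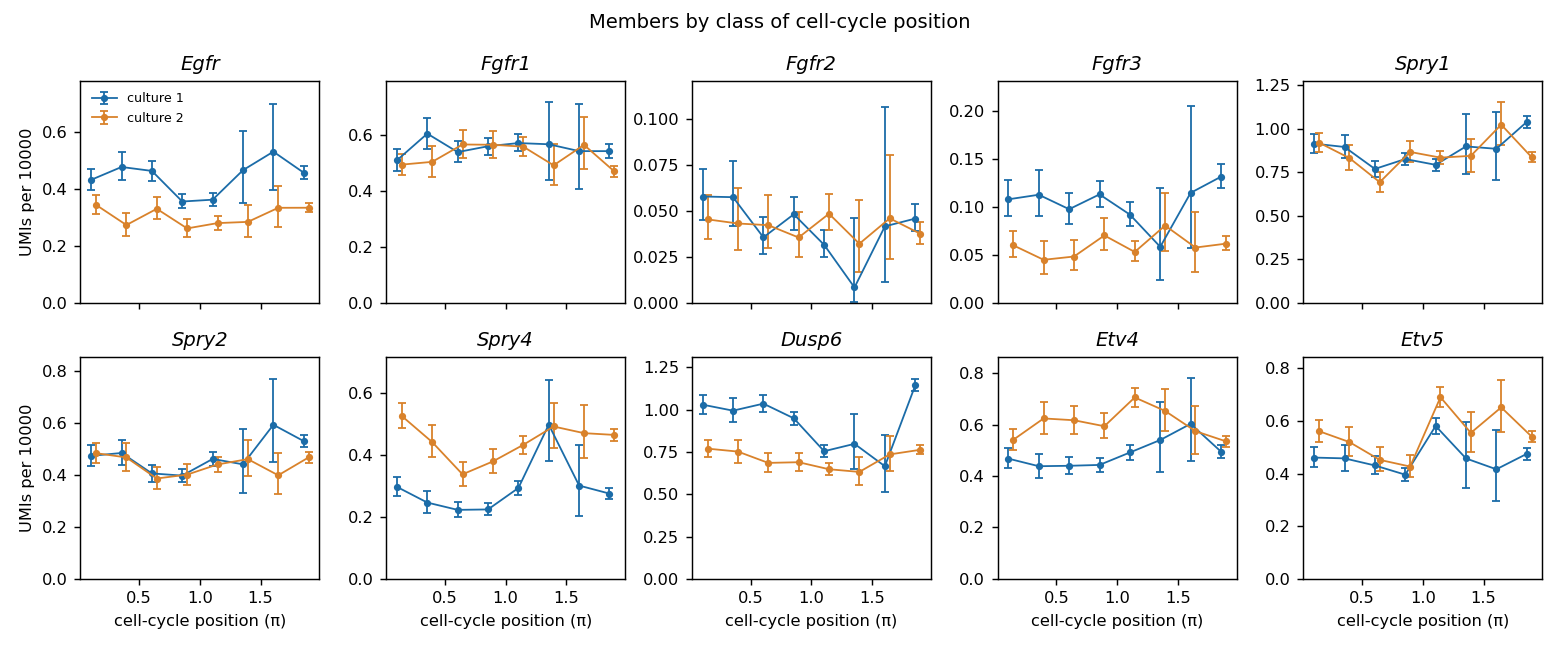
Recovered UMIs per 10000 total UMIs of each member in 8 classes of cell-cycle position (in units of π), with exact 95% Poisson intervals, for culture 1 (blue) and culture 2 (orange). *Etv5* steps from 0.396 to 0.581 and from 0.426 to 0.690 across π, and no other member has intervals apart at this step in both cultures.

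Of 129 other genes listed for the pathway, 82 were in the table, and the others were not analysed here. With the summed feedback genes, 2 of the 82 had an r of at least 0.1 in both cultures, against the 0.610% of genes given above, and none had -0.1 or below. They were *Ccnd1* (0.222 and 0.128), a known target of ERK signalling, and *Lrig1* (0.175 and 0.114), which encodes a membrane protein that limits EGF receptor levels. The median r was -0.004 and 0.018 for 9 ligands, 0.022 and 0.013 for 17 genes of RAS, RAF, MEK and ERK and their regulators, and -0.003 and 0.014 for 14 adaptors, against 0.003 in both cultures for all genes. Of the ligands, *Hbegf*, which encodes an EGF receptor ligand, was detected in 43.4% and 48.4% of cells and *Fgf1* in 12.3% and 18.4%, where *Egf* itself was detected in 1.72% and 1.45%. *Map2k2* had the highest mean value of the kinase list (3.13 and 3.43). *Grb2* and *Ptpn11* led the adaptors, in 66.5% and 61.5% and in 64.7% and 60.3% of cells. *Pea15a*, whose protein binds ERK, had an r of 0.292 in culture 1 and 0.092 in culture 2.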

How the data were processed

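Single-cell RNA-seq of 2 replicate cultures was analysed. By the methods, the authors quantified spliced counts with Alevin (Salmon 1.3.0) on GRCm38, removed outlying cells by UMIs, genes, mitochondrial share and doublet score, scaled to library size and integrated with Seurat 3.2.2; no further doublet or cell filter was applied here. The deposited expression values are a signal, linear and scaled for depth. Total UMIs are expected counts, and the cell-cycle position and stages are other values, as deposited by the authors. The labels give version 2 of the library kit.

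Values were used as log2(value + 1), and Pearson r, R2 of 2 harmonics and periodic loess (degree 2, span 0.3, on 401 positions) were computed in each culture. UMIs were recovered from the lowest dense step of each gene in each culture. A factor for each cell began at its total UMIs and was refitted to the steps, and the values were rounded. The recovery, R2 and r were tested on simulated data. Genes compared between cultures were detected in 5% to 80% of cells of each with a step of 0.65 to 2.5 times the median. Thinning used the expected detection at 10000 UMIs in cells with at least that many. Depth was compared in 10 classes of equal size. Intervals are exact at 95%. Python 3.11.15, numpy 2.4.6, scipy 1.17.1 and pandas 2.3.3 were used. Named genes are the members, the 5 most similar genes of each (3 negative for the sum), and of each list the highest and those past a threshold. Some genes under this rule are not reported here. Marker cells (Sox10, Pdgfra, Dcx), Slc1a3 groups, Spry2 classes and motifs were chosen after values were seen. The members and lists were chosen with earlier results of these data known. Symbols were found for 10662 genes. Alternatives were other scalings, pseudocounts, thresholds, depth or position fits, spans and each culture left out.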

Additional observations from a re-analysis of the deposited data

How the results depend on the processing

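No paired analysis was possible because there is 1 group and no test. The median over members of the mean deposited value was 0.922, and 0.908 to 0.936 with either culture left out. It was 1.44 with cells scaled to the mean total UMIs, 0.873 in a common depth window and 0.486 as recovered UMIs per 10000, which are other units or cells. The 2 member pairs at r of 0.1 in both cultures were the same pairs with Spearman rho, a pseudocount of 0.1, a fit of depth or of position, and recovered UMIs. There were 7 at a threshold of 0.05 and 0 at 0.2, and 2 to 6 with 1 culture left out, where only 1 culture has to pass. No member passed the R2 threshold under any of the 8 alternatives run, down to 0.01 in both cultures. The number of members with line maxima within 0.25π was 6 at spans of 0.3 and 0.5 and 8 at 0.2. The ratio of the summed feedback genes with over without Egfr was 1.10, from 1.09 to 1.11 with a culture left out, and 1.12 where detection required a value of at least 1. Use of recovered UMIs was chosen after the data were seen. What depth limits is detection: Fgfr2 rests on 519 and 454 UMIs in all, and its shape along the cycle was not resolved.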
